A study of Homo sapiens with 6 samples.

Results

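PRLHR, SIM1, SAMSN1, S100A13, IL1RAPL2, PDZRN3 and MYOCD were 7 of 16625 genes measured in control and PEDS1 knockout human neurons. They were chosen by their deposited normalized counts in this same comparison: large increases in the 3 knockout libraries over the 3 control libraries, with no overlap between groups. The difference between the genotypes is therefore what selected them, and their levels are given below as a description, without a test. The stated rule does not use their place in the genome, their promoter sequence or the behaviour of the genes they work with. Size and lack of overlap alone do not give these 7, since some genes with larger increases were not chosen. Whether anything else, such as function, entered the choice is not known.

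The neurons came from human induced pluripotent stem cells (iPSCs) and were sampled at day 10 to 14. Every cell, control or knockout, carried the neuronal transcription factor NGN2 under a doxycycline switch in the AAVS1 locus, and received doxycycline throughout, with BDNF and NT-3 added during maturation. The control group was 3 libraries of a UCSFi001-A-derived control iPSC line, and the PEDS1 knockout group was 3 libraries of a UCSFi001-A-derived PEDS1 knockout iPSC line. PEDS1 is the desaturase that forms the vinyl ether bond of plasmalogens, a class of ether lipids, and the series title places the work in ether lipid remodelling and ferroptosis. Each genotype has a single source name, so a difference of genotype and a difference between these particular cell lines cannot be told apart. Whether replicates came from separate cultures is not stated in the labels. The p-values therefore set the difference between the groups only against the spread of these libraries, and that spread may be technical.

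The 7 genes belong to different parts of the cell's machinery. PRLHR is a G protein-coupled receptor for prolactin-releasing peptide, a neuropeptide known for its part in feeding and stress responses. IL1RAPL2 is a membrane protein of the interleukin-1 receptor family and the closest relative of IL1RAPL1, which organises synapses. SIM1 is a basic helix-loop-helix PAS transcription factor best known from the paraventricular hypothalamus, and MYOCD is the co-activator through which serum response factor drives smooth and cardiac muscle genes. SAMSN1 is an adaptor protein with SH3 and SAM domains studied mainly in lymphocytes. PDZRN3 is an E3 ubiquitin ligase with PDZ domains that acts on MuSK and on Wnt signalling, and S100A13 is a small calcium-binding protein that takes part in the unconventional release of FGF1.

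The libraries held between 17996634 and 44573013 reads in the listed genes, and the 7 genes had between 72 and 1739 reads each in a library. The unit throughout is the normalized count, that is, reads per gene scaled by the size factor of each library. Transcripts of all 14 pan-neuronal markers were measured, with NEFM at a control mean of 107650.3 ± 994 normalized counts (SD, n = 3). Of the 14, ELAVL4, NEFL and INA rose, and TUBB3 and RBFOX3 fell, by 0.70 and 0.36 on the log2 scale (limma adjusted p 0.0244 and 0.0313). The list summed to 510582.0 to 528827.4 in controls and 559103.2 to 588609.3 in knockouts. None of the 7 GABAergic and 9 blood or microglial markers searched for had a row, and these are not analysed here. Across all genes, limma called 990 higher and 1279 lower in the knockout at an adjusted p under 0.05. The split was 265 and 358 without control replicate 1, 247 and 335 without control replicate 2, 640 and 869 without PEDS1 knockout replicate 2, and 1728 and 1849 without PEDS1 knockout replicate 3.

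PEDS1 itself read 1360.0, 1346.7 and 1399.3 normalized counts in control replicates 1 to 3, and 836.1, 765.1 and 1348.7 in knockout replicates 1 to 3. The library labelled PEDS1 knockout replicate 3 thus held as much PEDS1 transcript as the controls, and goes against its label at the level of RNA. The log2 fold change was -0.52 ± 0.17 (SE), with a limma adjusted p of 0.0725 over all genes. It was -0.77 with an adjusted p of 0.000147 without that library. No source used here says where the knockout mutation lies, and a mutated gene may still be transcribed.

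Among the receptors, PRLHR had a log2 difference of 1.78, next to 1.74 for SIM1. The pair is not separated by its errors, and SIM1 had the larger value without control replicate 1 or 3 or knockout replicate 2. It lies on the minus strand at chr10:118589989-118595699 (GRCh38, GENCODE 29; ENSG00000119973). Its normalized counts were 149.2, 192.0 and 177.2 in control replicates 1 to 3, and 532.0, 607.4 and 639.8 in knockout replicates 1 to 3. Every knockout library was above every control, and the lowest knockout value was 2.77 times the highest control value. The mean went from 172.8 ± 21.7 to 593.1 ± 55.3 (SD, n = 3 each), a log2 difference of 1.78 ± 0.12 (SE). In bulk RNA, more cells that express a gene and more RNA of it per cell cannot be told apart, here and for each gene that follows.

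IL1RAPL2 (ENSG00000189108) lies on the plus strand at chrX:104566315-105767829 and was the least abundant of the 7 in normalized counts. It read 78.4, 69.0 and 81.5 in the controls, and 176.1, 170.0 and 170.1 in the knockouts. The groups did not overlap, and the 3 knockout libraries were closer to each other than for any of the other 6 genes. Their coefficient of variation was 2.01%, less than the 8.36% that counting error alone gives on average at these read numbers. The log2 difference was 1.17 ± 0.12, from a mean of 76.3 ± 6.49 to 172.1 ± 3.45 (SD, n = 3 each).

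Of the transcriptional regulators, SIM1 (ENSG00000112246, minus strand, chr6:100385015-100464929) differed about as much as PRLHR. It measured 182.9, 160.2 and 211.7 normalized counts in the controls, and 570.5, 553.3 and 736.2 in the knockouts. The groups were well apart, and the highest value was in the library labelled PEDS1 knockout replicate 3. SIM1 was the most variable of the 7 within groups, with a pooled SD of 0.213 on the log2 scale. The means were 184.9 ± 25.8 and 620.0 ± 101 (SD, n = 3 each), and the log2 difference was 1.74 ± 0.14.

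MYOCD (ENSG00000141052, plus strand, chr17:12665890-12768949) is known from muscle, not from neurons. It nevertheless had 162.2, 153.1 and 180.9 normalized counts in the control neurons, and 347.3, 340.0 and 402.7 in the knockouts. No knockout library fell within the control range, and the lowest was 1.88 times the highest control. The log2 difference was 1.13 ± 0.11, the smallest of the 7, from 165.4 ± 14.2 to 363.3 ± 34.3 (SD, n = 3 each).

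The adaptor SAMSN1 (ENSG00000155307, minus strand, chr21:14485228-14658821) read 197.1, 223.9 and 220.4 normalized counts in the controls, and 578.2, 701.7 and 536.5 in the knockouts. The groups did not overlap. Within the knockouts SAMSN1 was highest in replicate 2 and lowest in replicate 3, the reverse of SIM1. Its means were 213.8 ± 14.6 and 605.5 ± 85.9 (SD, n = 3 each), with a log2 difference of 1.49 ± 0.12.

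The ubiquitin ligase PDZRN3 (ENSG00000121440, minus strand, chr3:73382433-73624940) was the most abundant of the 7. Its control values of 781.8, 773.3 and 782.7 normalized counts were nearly the same, and its knockout values were 1673.1, 1734.2 and 1771.8. All knockout libraries were more than double the control level, since the lowest of them was 2.14 times the highest control. PDZRN3 had the smallest pooled SD of the 7, 0.0303 on the log2 scale. The median was 0.121 over all genes with a mean of 100 to 2000 normalized counts, a range not matched to the level of PDZRN3. The log2 difference was 1.15 ± 0.07, from 779.3 ± 5.17 to 1726.3 ± 49.8 (SD, n = 3 each).

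S100A13 (ENSG00000189171, minus strand, chr1:153618787-153631360) has the shortest exon sequence of the 7, 2216 bases in all. It had 186.2, 153.1 and 197.5 normalized counts in the controls, and 407.0, 462.1 and 358.4 in the knockouts. The groups stayed apart, with the narrowest gap of the 7: the lowest knockout library was 1.81 times the highest control. The log2 difference was 1.19 ± 0.13, from 178.9 ± 23.1 to 409.2 ± 51.9 (SD, n = 3 each). S100A1, which overlaps S100A13 on the opposite strand, was not analysed here. No source used here says whether counting was by strand.

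**Figure D1:**
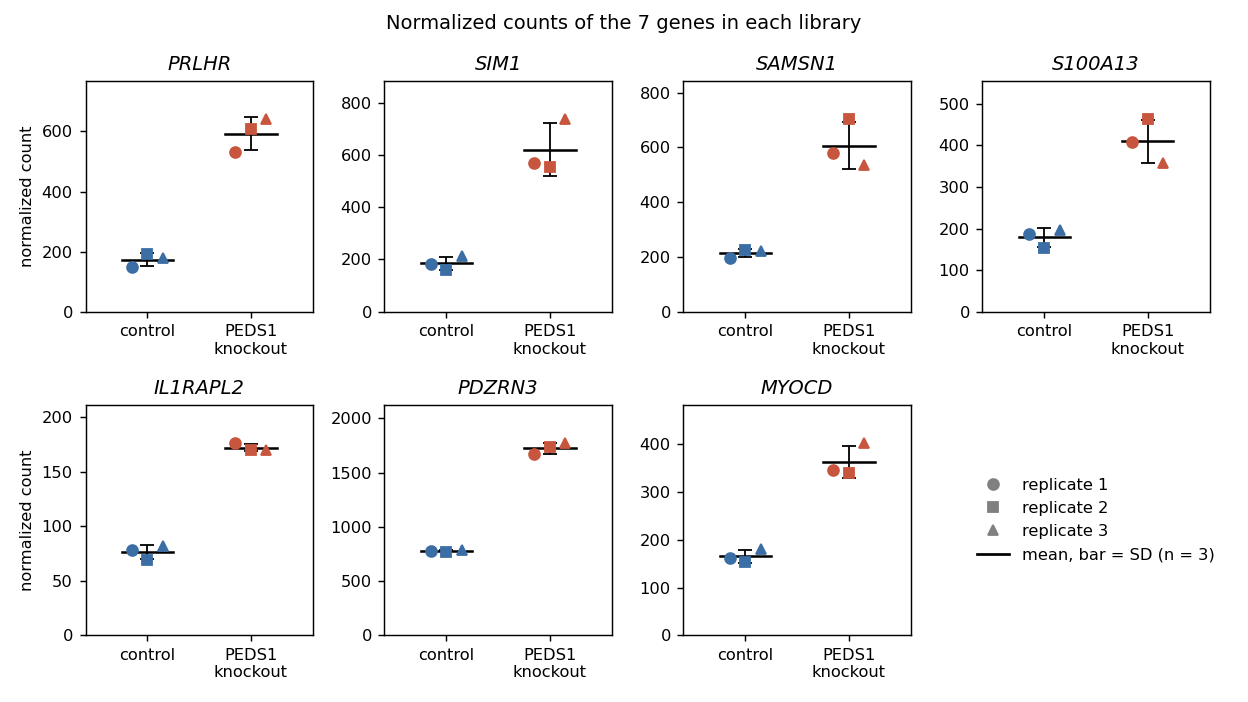
Normalized counts of the 7 genes in each library. Each panel is 1 gene with its own linear axis from 0, symbols mark the replicate number, and lines and bars give the mean and SD of 3 libraries; in every panel the 3 knockout libraries lie above the 3 controls.

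All 7 genes were non-overlapping and higher in the knockout, which the choice of members fixes. Across all genes, 37.1% were non-overlapping, 19.0% higher and 18.2% lower in the knockout, and limma called 5.95% higher and 7.69% lower. A log2 difference of 1 or more with no overlap was found in 0.583% of all genes, 97 in number. Of those, 78 had a mean below 100 normalized counts. Among the 11705 genes with a mean of 100 or more the share was 0.162%, or 19 genes. In that ranking PRLHR and SIM1 took places 1 and 2, SAMSN1 place 4, and S100A13, IL1RAPL2, PDZRN3 and MYOCD places 9 to 12.

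The genes around them in rank show that the choice did not follow size alone. MYOCD in place 12 had a log2 difference of 1.13, and CHRDL1, a secreted BMP antagonist in place 13, had the same value to 2 decimals. CHRDL1 read 152.4, 151.3 and 153.1 normalized counts in the controls, and 331.0, 357.0 and 315.3 in the knockouts, so it was not separated from MYOCD by size. RPH3A, FAR2, ITGA4 and NTS ranked between SAMSN1 and S100A13, with log2 differences of 1.46, 1.28, 1.26 and 1.21. Without a floor on the mean count, 3 genes exceeded PRLHR: TFPI2 at 2.96, ENPP6 at 2.24 and TXNIP at 1.98, with means of 19.0, 9.04 and 50.1 normalized counts.

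**Figure D2:**
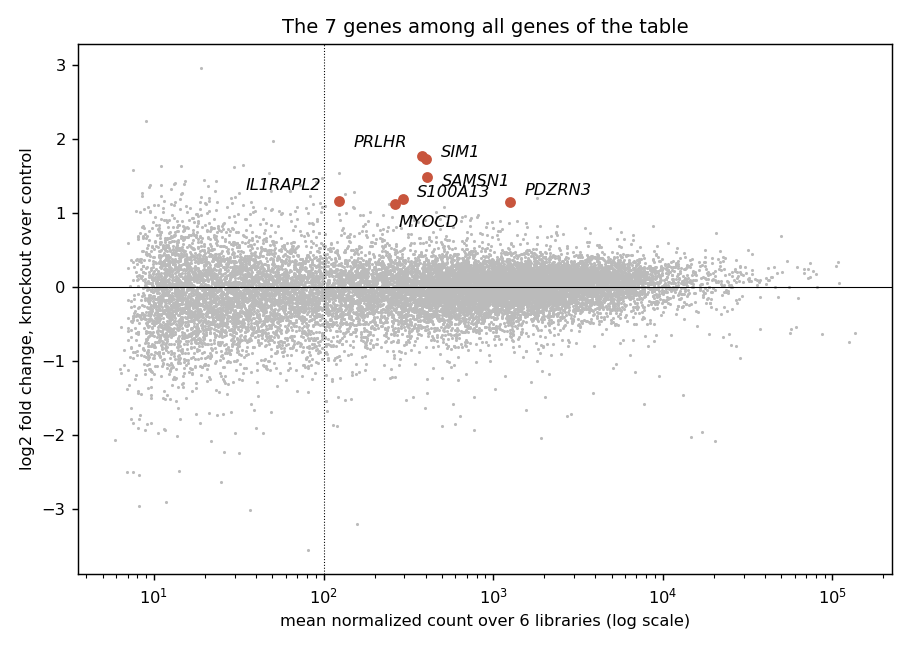
Log2 fold change against mean normalized count over 6 libraries (log axis) for all genes, with the 7 genes in red and a dotted line at a mean of 100. The 7 lie between 1.13 and 1.78 on the log2 axis, and the scatter of the other genes is wider to the left of the line.

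Per length, the order of abundance differed from that of the counts. In the controls, PDZRN3 had 127 ± 0.842 normalized counts per kilobase of exon, followed by S100A13 at 80.7 ± 10.4, SAMSN1 at 41.2 ± 2.81 and PRLHR at 31.0 ± 3.91 (SD, n = 3 each). Neighbours in that order did not overlap. Below them, IL1RAPL2 at 24.2 ± 2.06 overlapped SIM1 at 19.9 ± 2.79, which overlapped MYOCD at 18.6 ± 1.6. In the knockouts the first 4 kept their order, from PDZRN3 at 281 ± 8.12 and S100A13 at 185 ± 23.4 to SAMSN1 at 117 ± 16.6 and PRLHR at 107 ± 9.93, and the latter pair overlapped. SIM1 at 66.9 ± 10.9 then stood above IL1RAPL2 at 54.7 ± 1.1 with no overlap, and MYOCD was last at 40.9 ± 3.86. Against all genes, control levels in normalized counts ran from the 26.7th percentile for IL1RAPL2 to the 57.5th for PDZRN3, so all 7 were detected in control neurons.

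The library labelled PEDS1 knockout replicate 3 was among the libraries on which the 7 genes were chosen, so that it lies above the controls for them was fixed by the choice. Set against the control mean on the log2 scale, PEDS1 was lower by 0.71 and 0.84 in knockout replicates 1 and 2 and by 0.02 in replicate 3. In the same 3 libraries PRLHR was higher by 1.62, 1.82 and 1.89, and SIM1 by 1.63, 1.59 and 2.00. S100A13, in contrast, was lowest in replicate 3, at 1.01, against 1.19 and 1.37 in replicates 1 and 2. Replicate 3 was the highest knockout library for 4 of the genes and the lowest for 2. Without it the log2 differences were lower for PRLHR (1.72), SIM1 (1.61), PDZRN3 (1.13) and MYOCD (1.05), higher for SAMSN1 (1.57) and S100A13 (1.28), and 1.17 for IL1RAPL2.

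**Figure D3:**
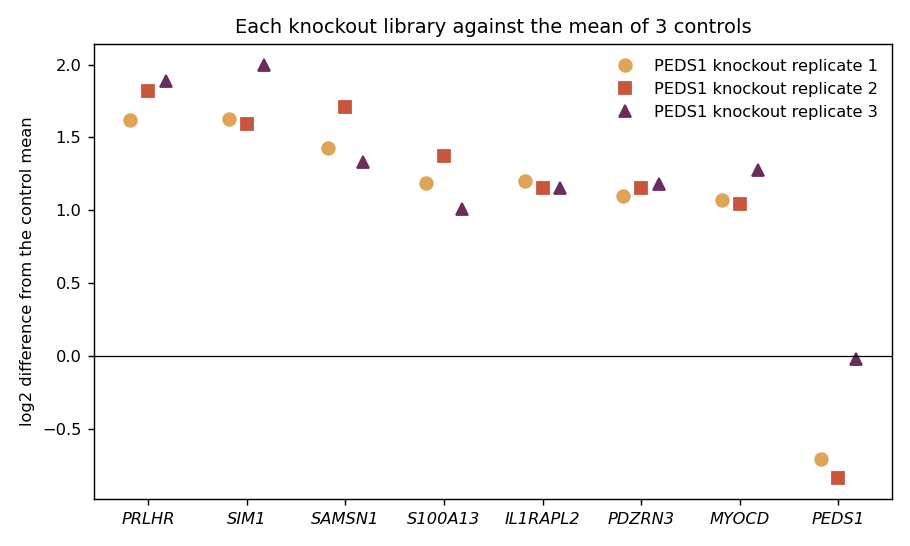
Log2 difference of each knockout library from the mean of the 3 controls, for the 7 genes and PEDS1; symbols mark the replicate. All 21 points of the 7 genes are at 1.01 or above, while PEDS1 is near 0 in replicate 3 only.

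The genes that the 7 are known to work with were next examined: relatives, ligands, binding partners and target genes. The stated rule did not use their values, but the lists were drawn up with earlier results of these data known. Of 135 such genes 84 had a row. Of these, 10 rose and 4 fell, while 70 did not pass the test. That is 16.7% called against 13.6% of all genes. By direction, the 10 of 84 stand beside 5.95% of all genes called higher, and the 4 of 84 beside 7.69% called lower. The median log2 fold change was 0.05, against 1.19 for the 7 genes and -0.006 for all genes. The call counts depended on single control libraries: without control replicate 1, 9 of the 14 calls were lost (limma adjusted p of 0.0928 to 0.189), and without control replicate 2, 10 were lost (0.0751 to 0.204). Without PEDS1 knockout replicate 2, 6 calls were lost, with adjusted p from 0.0504 to 0.0851. ANXA2, S100A10, VCL and TAGLN kept their call whichever single library was left out.

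For PRLHR, neither the ligand PRLH nor the related receptor NPFFR1 was analysed here. Of 12 measured genes of its list, 3 rose and 1 fell. PLCB1, a phospholipase C of Gq-coupled signalling, had means of 3548.0 ± 195 and 4726.3 ± 554 normalized counts (SD, n = 3 each) and rose by 0.41 ± 0.09 on the log2 scale (limma adjusted p 0.018). PLCB4, of the same enzyme family, rose by 0.28 ± 0.07 (limma adjusted p 0.0363). GRIP1 and PICK1 are PDZ proteins that can bind the tail of the receptor, and they moved in opposite directions. GRIP1 rose from 1747.9 ± 76.9 to 2197.1 ± 72.0, and PICK1 fell from 1077.0 ± 71.6 to 834.3 ± 30.1 (limma adjusted p 0.0159 and 0.0172). All 4 calls were lost without control replicate 1 and without control replicate 2. The calls of PLCB4 and PICK1 were lost without knockout replicate 2 too, and that of PLCB4 without knockout replicate 1. With GC and length trends removed, the log2 fold changes shrank to 0.22 for PLCB1 and 0.21 for GRIP1, and to 0.11 for PLCB4 and -0.17 for PICK1, of which the latter pair did not pass (adjusted p 0.141 and 0.089). The neuropeptide Y receptors NPY1R and NPY5R had log2 fold changes of -0.76 and -1.14 and did not pass (limma adjusted p 0.0508 and 0.0527). NPFFR2, a relative of NPFFR1, went the other way, with a log2 fold change of 0.40, and did not pass either (limma adjusted p 0.0514).

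For IL1RAPL2, 1 of 11 measured genes passed. PTPRD, the receptor tyrosine phosphatase that binds IL1RAPL1 across the synapse, rose from 3292.5 ± 204 to 4295.9 ± 614 normalized counts, a log2 fold change of 0.38 ± 0.10 (limma adjusted p 0.0356). It too did not pass without control replicate 1 or control replicate 2, with adjusted p of 0.15 and 0.151. With GC and length trends removed its log2 fold change was 0.17, still called. Its relatives PTPRS and PTPRF had log2 fold changes of 0.05 and -0.09, and the interleukin-1 co-receptor IL1RAP had -0.14, none of which passed.

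For SIM1, 1 of 13 measured genes passed: HIF1A, another PAS protein, rose by 0.25 ± 0.07 (limma adjusted p 0.0413), a call lost on leaving out control replicate 1 or 2, or knockout replicate 1 or 2. It was lost with quantile normalization too (0.19, adjusted p 0.0886), and the value was 0.14, still called, with GC and length trends removed. With those trends removed, 4 genes of the list were called lower. The dimer partner ARNT2 was abundant, at 5501.3 ± 76.4 normalized counts in controls and 5078.8 ± 263 in knockouts, and did not pass (log2 fold change -0.12, adjusted p 0.258). POU3F2, which acts after SIM1 in the hypothalamus of the mouse, had a log2 fold change of -0.19 and did not pass (0.127). OTP, MC4R, OXT, AVP and CRH, which mark the hypothalamic neurons where SIM1 is known to act, were not analysed here. Of the 5 other hypothalamic markers measured, FEZF1 rose by 0.59 and HMX3 fell by 1.00 on the log2 scale (limma adjusted p 0.0328 and 0.0284), and both stayed under 65 normalized counts.

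For MYOCD, 19 of 25 partners and muscle targets were measured, and 2 rose and 2 fell. VCL, which encodes the focal adhesion protein vinculin, rose from 1669.6 ± 53.4 to 2698.1 ± 104 normalized counts, a log2 fold change of 0.69 ± 0.07 (limma adjusted p 0.000321). TAGLN, a smooth muscle actin-binding protein, read 107.8, 131.0 and 121.6 in the controls, and 45.2, 63.4 and 72.6 in the knockouts. Its groups did not overlap either, in the opposite direction, and it fell by 1.00 ± 0.18 on the log2 scale (limma adjusted p 0.00813). SMTN, which encodes the smooth muscle protein smoothelin, fell by 0.87 ± 0.18 (limma adjusted p 0.0146) and did not pass without control replicate 2 (0.0905). FHL2, a LIM-domain cofactor, rose by 0.77 ± 0.20 at 33.3 to 56.6 normalized counts on average (0.0352), a call also lost on leaving out control replicate 1 or 2, or knockout replicate 1 or 2. SRF, the DNA-binding partner of MYOCD, was at 1048.2 ± 32.4 and 1079.9 ± 21.6 and did not pass (log2 fold change 0.04, adjusted p 0.713). ACTA2, CNN1, MYH11 and DES, the defining genes of smooth and striated muscle, were not analysed here.

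For S100A13, 8 of 25 genes were measured, and 2 rose and 1 fell. S100A10 and ANXA2 encode the 2 subunits of the annexin A2 complex, which sits at the plasma membrane. S100A10 read 426.8, 422.9 and 496.9 normalized counts in the controls, and 904.4, 969.1 and 664.7 in the knockouts. ANXA2 read 879.8, 845.9 and 922.2 in the controls, and 1751.0, 1669.2 and 1423.6 in the knockouts. For both, every knockout library was above every control, and replicate 3 was the lowest of the knockouts, as it was for S100A13. S100A10 rose by 0.90 ± 0.14 and ANXA2 by 0.87 ± 0.09 on the log2 scale (limma adjusted p 0.0035 and 0.000431). ANXA2 has pseudogenes of nearly the same sequence, and how reads shared with them were counted is not known. AGER, a receptor for S100 proteins, fell by 0.78 ± 0.21 (limma adjusted p 0.0357), from 244.3 ± 30.5 to 145.9 ± 44.2 normalized counts, and its call was lost without control replicate 1 (0.138), control replicate 2 (0.136) or knockout replicate 2, where the log2 fold change was -0.52 (0.0529). Removing GC and length trends also took the call away (-0.61, adjusted p 0.0737). The other S100 genes with a row were S100A6, S100A11 and S100B, with log2 fold changes of 0.69, 0.51 and 0.67, and none of them passed in the main fit. FGF1 was not analysed here.

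For SAMSN1, 1 of 9 measured genes passed. YWHAG, a 14-3-3 protein, rose by 0.28 ± 0.07 (limma adjusted p 0.0316), and its call was lost without any 1 of the 3 controls (0.135, 0.146 and 0.071) or knockout replicate 2 (0.0572), and with quantile normalization (0.0522). The family member SASH1 had a log2 fold change of 0.14 (adjusted p 0.495). For PDZRN3, limma called 0 of 12 measured genes, with 5 at an unadjusted p under 0.05. On the recovered reads edgeR also called 0 and DESeq2 called 1, AGRN, which encodes agrin and had a limma log2 fold change of -0.53 (adjusted p 0.0866). VANGL2 and DVL3, which act in planar polarity and Wnt signalling, had log2 fold changes of 0.01 and -0.05. The relatives PDZRN4 and LNX1 had 0.17 and 0.66 and did not pass.

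**Figure D4:**
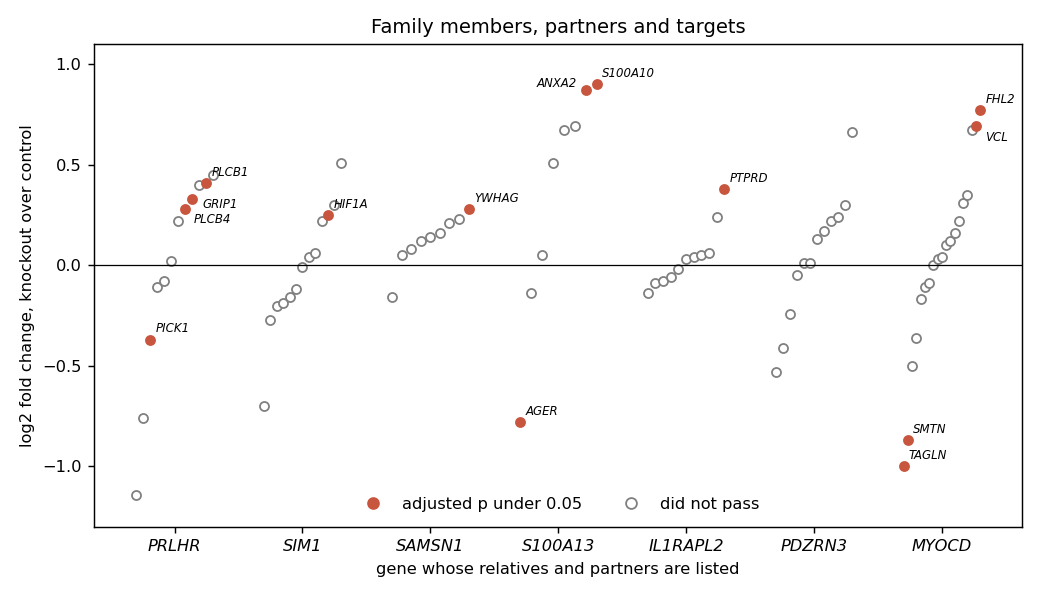
Log2 fold change of each measured relative, partner or target, by the gene it belongs to, in order of size; filled points passed at a limma adjusted p under 0.05. Of the 84 points, 10 filled points lie above 0 and 4 below.

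The 7 genes lie on 7 different chromosomes, and their genomic neighbours were compared in the same fit. They were the 3 measured genes before and the 3 after each, in order of start position, which is not always the order of distance. Of these 42 genes, 4 rose and none was called lower by limma. For the lower direction, 2 had an unadjusted limma p under 0.05, and edgeR and DESeq2 both called 0. For the higher direction, 16 had an unadjusted limma p under 0.05, and edgeR called 4 and DESeq2 called 6. The share of all genes at that unadjusted p is not given here. The called share was 9.52%, all of it higher, against 5.95% of all genes called higher and 13.6% called in either direction. The median log2 fold change was 0.17, against -0.006 for all genes. The largest called change was in AF127577.4, a long noncoding RNA 160 kb from SAMSN1 and on the same strand. It read 142.6, 156.6 and 174.7 normalized counts in the controls, and 275.2, 259.7 and 275.6 in the knockouts. It did not overlap between groups and rose by 0.77 ± 0.11 on the log2 scale (limma adjusted p 0.00224), a call kept whichever single library was left out.

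Next to SIM1, ASCC3, a helicase subunit 43.3 kb away, rose by 0.36 ± 0.08, and GRIK2, a kainate receptor subunit 716 kb away, rose by 0.29 ± 0.08 (limma adjusted p 0.0212 and 0.0369). RADX, a single-strand DNA-binding protein 844 kb from IL1RAPL2, rose by 0.39 ± 0.08 (limma adjusted p 0.0125). ASCC3 and RADX did not pass without control replicate 1 (0.103 and 0.069) or control replicate 2 (0.121 and 0.0776), and GRIK2 passed in only 1 of the 6 fits that leave out a library. With GC and length trends removed, the log2 fold change of ASCC3 was 0.16, still called, and that of GRIK2 was 0.16 with an adjusted p of 0.0592. At the other genes the first neighbours on each side did not pass in the main fit. CHTOP, 2.62 kb from S100A13, had a log2 fold change of -0.09. S100A6, 82.5 kb away on the other side, had 0.69 ± 0.23 (limma adjusted p 0.0742), at means of 36.4 and 61.0 normalized counts. S100A6 did pass in limma with GC and length trends removed (0.94, adjusted p 0.017), with quantile normalization (0.0469) and without knockout replicate 3 (0.00853). ARHGAP44, 20.6 kb from MYOCD, had 0.04. CACUL1 and FAM204A beside PRLHR had 0.34 and 0.16 (0.11 and -0.08 with GC and length trends removed), and MAP2K4 on the other side of MYOCD had 0.16. CACUL1, at a limma adjusted p of 0.0611, was called by DESeq2 and in the authors' deposited table (0.35, adjusted p 0.0272 in each). Limma called CACUL1 with quantile normalization (0.0449) and without knockout replicate 3 (0.027). On the side after its last exon, PDZRN3 had PPP4R2 at 313 kb with 0.21 ± 0.09 and EBLN2 at 319 kb with -1.06 ± 0.39 (adjusted p 0.126 and 0.0984). AC117489.1, which overlaps the start of PDZRN3 on the opposite strand, had 0.35 ± 0.31 (adjusted p 0.464).

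**Figure D5:**
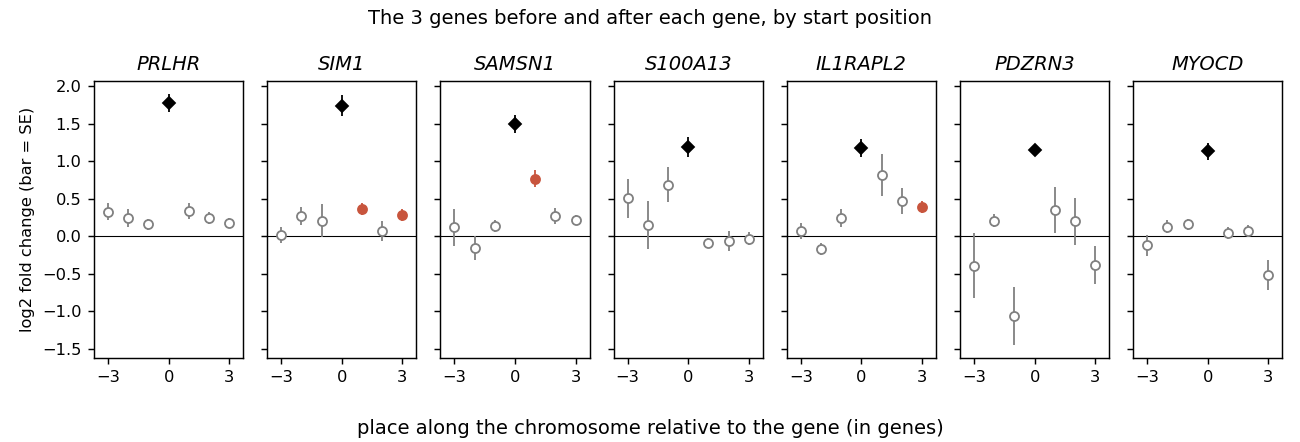
Log2 fold change with SE of the 7 genes (black, place 0) and of the 3 measured genes before and after each by start position; red points are neighbours with a limma adjusted p under 0.05. Each of the 7 genes lies above all of its 6 neighbours, which follows largely from the choice of members for large increases. In all, 4 neighbours are red.

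Promoter windows of 300 bases, from 250 before to 50 after the start, were read from RefSeq (GRCh38.p14) for 6 of the 7 genes, and MYOCD was not matched. Where a gene had several starts the most upstream one is used, and which start these neurons use is not known. The windows of the 3 genes with the largest log2 differences are shown, and they include the richest and the poorest of the 6 in G and C. They are PRLHR at chr10:118595599-118595898, SIM1 at chr6:100464872-100465171 and SAMSN1 at chr21:14658797-14659096, all read from the minus strand. Capitals mark matches, on either strand, to the CCAAT box, to the GC box with the letters GGGCGG and to the TATA box with the letters TATAAA.
PRLHR: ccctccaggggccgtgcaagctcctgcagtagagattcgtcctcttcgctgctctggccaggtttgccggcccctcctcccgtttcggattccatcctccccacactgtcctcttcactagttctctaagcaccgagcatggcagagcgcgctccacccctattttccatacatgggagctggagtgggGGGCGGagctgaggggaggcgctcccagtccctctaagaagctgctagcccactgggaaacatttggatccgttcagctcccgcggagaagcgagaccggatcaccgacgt
SIM1: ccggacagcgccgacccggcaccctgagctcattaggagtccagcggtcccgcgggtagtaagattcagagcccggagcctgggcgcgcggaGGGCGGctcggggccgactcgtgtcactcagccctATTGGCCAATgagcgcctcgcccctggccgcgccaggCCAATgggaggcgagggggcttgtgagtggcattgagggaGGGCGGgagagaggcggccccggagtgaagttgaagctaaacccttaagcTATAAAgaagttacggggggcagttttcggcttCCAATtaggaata
SAMSN1: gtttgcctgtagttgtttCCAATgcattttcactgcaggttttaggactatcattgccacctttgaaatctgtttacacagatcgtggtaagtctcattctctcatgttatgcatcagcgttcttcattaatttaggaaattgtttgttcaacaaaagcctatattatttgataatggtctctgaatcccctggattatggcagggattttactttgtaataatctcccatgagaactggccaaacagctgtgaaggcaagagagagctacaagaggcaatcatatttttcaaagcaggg

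The SIM1 window held 4 matches to CCAAT, 1 of them on the other strand directly before another, with 2 to GGGCGG and 1 to TATAAA. The PRLHR window held a single GGGCGG, and the SAMSN1 window a single CCAAT. The SAMSN1 window was AT-rich, with 38.7% G and C, whereas PRLHR had 61.3% and SIM1 64.0%. The median over 27305 windows was 58.3%. Over the 6 windows, GGGCGG was found in 4, CCAAT in 2 and TATAAA in 1, and these motifs were found in 44.5%, 35.7% and 12% of all windows. TGACG, the core of a cAMP response element, was in 1 of the 6, that of IL1RAPL2, and in 25% of all windows. No match to CAGATG, an E-box, to TACGTG, the element known from the related Sim protein of Drosophila, or to the CArG box of serum response factor was found in the 6 windows. They were found in 14.8%, 3.32% and 1.29% of all windows, and no match says only that these letters are not in these windows. All motifs were searched on both strands, and a match is a description of the sequence, not a binding site.

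The transcripts most like each gene were listed by Pearson's r over the 6 libraries, as a description: the libraries are the same for both genes and the difference between the groups is part of r. PRLHR was followed most closely by PIRT (r = 0.9989) and EYA1 (0.9982). SIM1 and MYOCD had the same first gene, STARD13, with r = 0.9982 and 0.9985. CCDC117 (0.9974) came second for SIM1 and B3GAT2 (0.9978) for MYOCD. SAMSN1 was closest to SPARC (0.9987) and CXCR4 (0.9967), IL1RAPL2 to SSTR2 (0.998) and CTNNA2 (0.9976), and PDZRN3 to SERPINI2 (0.9997) and EGFLAM (0.9981). S100A13 was closest to ZNF225-AS1 (0.9936) and ZNF41 (0.9914). Such likeness was common: between 3 genes for S100A13 and 59 for MYOCD had r of 0.99 or more. With the group means taken out, the gene that followed SAMSN1 was again SPARC (0.9964). It was another gene for the rest, among them GPCPD1 for PRLHR (0.99), VASH2 for SIM1 (0.9995), TIGD6 for IL1RAPL2 (0.9985), EPB41L4B for PDZRN3 (0.9983) and ZNF829 for MYOCD (0.9986).

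Some markers of neuron types and of other cells differed between the genotypes too, and their part in the increases of the 7 genes was not tested. The counts below stand beside 13.6% of all genes called, 5.95% higher and 7.69% lower. Of 10 sensory and cranial neuron markers, 5 rose and 1 fell. ISL1, a LIM-homeodomain transcription factor, rose from 756.3 ± 71.2 to 1093.7 ± 122 normalized counts (limma adjusted p 0.012), and the summed level of the list was 19988.9 to 20469.1 in controls and 21336.5 to 21678.5 in knockouts. Of 8 measured glutamatergic markers 3 rose, among them the vesicular glutamate transporter SLC17A7, by 0.55 on the log2 scale (limma adjusted p 0.00154), and the list summed to 24235.5 to 24979.5 in controls and 29100.5 to 31625.9 in knockouts. Of 4 measured pluripotency markers LIN28A rose by 1.08 and SOX2 fell by 0.47 on the log2 scale (limma adjusted p 0.000321 and 0.0118). The list summed to 910.5 to 914.9 in controls and 1057.2 to 1265.9 in knockouts. That higher sum came from LIN28A, with means of 326.0 and 696.3, while SOX2 had 383.0 and 276.1. DNMT3B (-0.38) and DPPA4 (0.13) did not pass, and the median log2 fold change of the list was -0.12. POU5F1, NANOG, TDGF1 and ZFP42 had no row and were not analysed here. Of 6 measured progenitor markers 2 rose, PAX6 by 0.89 and TOP2A by 1.04 (limma adjusted p 0.00912 and 0.00749). Both were low, with means of 45.0 and 84.1 normalized counts for PAX6 and 32.0 and 66.3 for TOP2A. The list summed to 26821.4 to 28635.3 in controls and 28855.8 to 32439.0 in knockouts. Most of that sum was NES, with means of 26380.9 and 29382.5, which did not pass (log2 fold change 0.15, limma adjusted p 0.166). Of 4 measured oligodendrocyte markers 1 rose, and the other 3 had log2 fold changes of 0.00 to 0.03 and did not pass. The 3 measured astrocyte markers summed to 63.2 to 76.5 and 69.2 to 80.4. TAGLN was the only measured gene of 10 smooth and cardiac muscle markers. Of 4 measured mesenchymal markers COL1A2 rose by 1.08 (limma adjusted p 0.0156), and that list summed to 61.1 to 83.2 in controls and 65.4 to 132.7 in knockouts.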

How the data were processed

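PolyA RNA of 6 libraries was read as single-end 100-base reads from stranded libraries made with 500 ng of total RNA, per the labels' protocols. All libraries carry 1 batch label. Groups and replicate numbers come from the sample titles. The submitters' processing notes name STAR 2.7.10b, DESeq2 and GRCh38; for the counting tool, its strand setting and its annotation no source used here gives a name.

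The authors deposited normalized counts per gene and library (a signal, reads divided by a size factor). In these deposited values 100% were whole multiples of 1 read (tolerance 1e-06), which gave totals of 17996634 to 44573013 reads. Each of the 16625 genes reached 10 reads in at least 3 libraries, and 1687 had no symbol. The authors' deposited table also holds, for each gene, the Wald score, the p-value and the log2 fold change; its adjusted p-value is empty in 1612. A second deposited sheet of 344 rows, with 6 per-sample columns, was not used.

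The main test was limma 3.58.1 (R 4.3.3) with trend on log2(normalized count + 1), knockout against control, adjusted by Benjamini-Hochberg over all 16625 genes. Fold changes are on that scale. The fit was tested on simulated data. That simulation gave every library the same relative spread, whereas the knockout libraries here differed more from each other than the controls did. As alternatives, the recovered reads were tested with edgeR 4.0.16 and with DESeq2 1.42.0; the others were TMM and quantile scaling, pseudocounts of 0.5 and 5, mean count filters of 10 and 100, removal of GC and length trends, a replicate block, the authors' deposited table, and leaving out each library. Positions are from GENCODE 29, and exon lengths are the union of its exons.

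The members and gene lists were chosen with earlier results of these data known. Named were all 7 members, PEDS1, up to 4 called genes per partner list with the smallest adjusted p (the 2 most abundant where none was called), called neighbours or the first on each side, the 2 most like transcripts per member and 1 with group means taken out, and genes next in rank. Other genes that did not pass, the low-count genes above PRLHR and marker genes were picked for naming after their values were seen. The gene in place 3 of the ranking by log2 fold change is not reported here.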

Additional observations from a re-analysis of the deposited data

How the results depend on the processing

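The median log2 fold change of the 7 genes, 1.19, moved by less than the replicate spread under every alternative, as did each gene's own value except PDZRN3 and MYOCD with GC and length trends removed (1.21 and 0.95). The ranges over 17 alternatives were 1.68 to 1.86 for PRLHR, 1.53 to 1.84 for SIM1, 1.38 to 1.57 for SAMSN1, 1.08 to 1.28 for S100A13, 1.1 to 1.25 for IL1RAPL2, 1.13 to 1.21 for PDZRN3 and 0.95 to 1.2 for MYOCD. No called result changed its direction. Of the uncalled ones, FAM204A (0.16) was -0.08 with GC and length trends removed, and VANGL2 (0.01) ranged from -0.09 to 0.06.

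The counts of calls moved more. Leaving out 1 library gave 247 to 1728 genes called higher (990 with all) and 335 to 1849 called lower (1279). For the partner lists it gave 3 to 15 higher (10 with all) and 1 to 11 lower (4), and for the neighbours 1 to 9 higher (4) and none lower. The partner genes called lower were 7 with DESeq2 and 7 in the authors' deposited table, 12 with GC and length trends removed, and 2 among genes with a mean of 100 or more, where fewer genes were tested. The neighbours called higher were 7 with quantile normalization and 2 with 1 gene on each side, where fewer were tested. With 5 on each side 6 were called higher, now with S100A10 beside S100A13 and PIRT beside MYOCD. In that wider count 2 were called lower, INTS3 beside S100A13 and SHISA6 beside MYOCD. These genes were named here after their values were seen. Except for those that follow from fewer genes or samples, the cause was not tested.

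With the replicate number as a block, 6 partner genes were called higher, and the member median stayed at 1.19. Same-numbered samples had correlations of deviations of -0.3, 0.0971 and -0.0492, and not every sample correlated best with its own number, so the numbers give no pairing.

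Depth limits IL1RAPL2 most, with 72 reads in its smallest library. A group of 3 libraries, 1 line a genotype and a knockout library with PEDS1 at the control level limit every comparison.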
